A study of Mus musculus with 17 samples.

Results

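The genes described here move lipid out of, into and within a monocyte. They were 10 genes chosen by name, with 1 probe set each, out of 22180 genes measured on 17 mouse arrays. Abca1, Abcg1, Abca9 and Abcg3 encode ATP-binding cassette transporters. Apoe and Pltp encode a secreted apolipoprotein and the phospholipid transfer protein, Lpl encodes lipoprotein lipase, Fabp4 and Fabp5 encode fatty acid-binding proteins, and Plin2 encodes a lipid droplet coat protein. No difference between groups entered the choice rule, but these genes and the lists used below were chosen with earlier results of these data known. Shares of these lists beside those of all genes are therefore descriptive. A probe set was taken where it named a single symbol. Where a gene had several, the one with the highest mean over all arrays was taken, which was the case for Lpl with 2 and Fabp5 with 4.

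Phagocytes take in lipid with every cell and lipoprotein particle they engulf and cannot break down the sterol ring. They dispose of it by export, with Abca1 loading lipid-poor apolipoprotein and Abcg1 loading larger lipoprotein particles. Apoe carries the exported lipid, Lpl releases fatty acids from triglyceride outside the cell, and the fatty acid-binding proteins and Plin2 hold fatty acids and neutral lipid inside it. The nuclear receptors of the LXR and PPAR families are the known regulators of many of these genes in macrophages.

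The arrays covered 5 groups of sorted cells from mice of 8 to 12 weeks labelled C57BL/6. Splenic Ly6C+ monocytes were sorted 48 h after PBS (4 arrays) or diphtheria toxin, DT (4 arrays), from CD11c.DTR mice, in which the Itgax promoter drives the toxin receptor fused to a fluorescent protein, so the PBS mice carry the transgene too. Hetero- and homozygous carriers were both used, and the toxin removes the cells that express the receptor, chiefly dendritic cells. The third group held Ly6C+ monocytes of 3 arrays labelled as induced by Flt3L and G-CSF, which the methods describe as C57BL/6 mice given G-CSF under the skin, and no vehicle arrays of that experiment were analysed here. Ly6Cneg spleen monocytes (3 arrays) were labelled as from the transgenic mice 48 h after PBS, although the study's legends give C57BL/6 for them. Common monocyte progenitors, cMoPs (3 arrays), came from the marrow of untreated C57BL/6 mice. Mice were used singly or pooled, so the p-values measure the spread between arrays. Array names fall into 2 series, called A (8 arrays) and B (9 arrays) here, and what the name prefix marks is not stated. The progenitor and Ly6Cneg groups lay in series A, the G-CSF group in series B, and the DT and PBS groups each had 1 array in A and 3 in B.

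The 3 PBS arrays of series B went against their label. The mean log2 level of 8 progenitor markers was 10.69 to 10.77 on them, close to the 10.8 to 10.92 of the cMoP arrays, but 6.319 on the PBS array of series A and 6.194 to 6.414 on the DT arrays. Neutrophil markers stood at 11.13 to 11.18 against 8.101 on the PBS array of series A and 8.328 to 9.838 on the DT arrays. The 4 classical monocyte markers measured were lower, at 10.33 to 10.35 against 11.75 to 11.84 on the DT arrays, and Ly6c2, which encodes the sort marker Ly6C, was at 11.33 to 11.38 against 12.93 to 13.03. Kit, the stem cell factor receptor, was at 10.85 to 11.05 on these arrays and at 5.12 to 6.24 on the DT arrays. Their part in the differences from PBS was not tested. Differences from PBS are therefore taken from all arrays, from series B alone, and with the PBS array of series A, called PBS A1, as the only PBS array. Because the model holds the series, this last difference for DT is the DT array of series A, DT A1, minus PBS A1. It compares a single array with a single array, and the other DT arrays add only to its SE. For G-CSF, which has no array in series A, that pair is added to G-CSF minus DT in series B. Among the other groups, Kit was at 8.20 to 10.28 on the Ly6Cneg arrays, and Itgam, which encodes CD11b, was lowest on the cMoP arrays at 6.66 to 6.88.

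Promoters of 6 of the 10 genes were in the reference table, and those of 4 genes are shown, Abca9, Abcg3 and Pltp because their levels were higher in DT and G-CSF than in PBS from all arrays, and Abca1 because its level was lower. Each runs 5′ to 3′ on the minus strand, from RefSeq on build GRCm38.p6, and capitals mark every match to GAGGAA (the core bound by the myeloid factor PU.1), to the E-box CACGTG and to TATAAA, on either strand, with no match overlapping another. The windows are chr11:110168104-110168403 for Abca9, chr5:104982668-104982967 for Abcg3, chr2:164857659-164857958 for Pltp and chr4:53159846-53160145 for Abca1.
Abca9: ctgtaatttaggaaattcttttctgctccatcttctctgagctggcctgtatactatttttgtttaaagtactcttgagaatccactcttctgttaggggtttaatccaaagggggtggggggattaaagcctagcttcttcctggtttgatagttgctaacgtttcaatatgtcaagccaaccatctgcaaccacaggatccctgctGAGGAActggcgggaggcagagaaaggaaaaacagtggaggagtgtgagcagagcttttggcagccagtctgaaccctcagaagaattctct
Abcg3: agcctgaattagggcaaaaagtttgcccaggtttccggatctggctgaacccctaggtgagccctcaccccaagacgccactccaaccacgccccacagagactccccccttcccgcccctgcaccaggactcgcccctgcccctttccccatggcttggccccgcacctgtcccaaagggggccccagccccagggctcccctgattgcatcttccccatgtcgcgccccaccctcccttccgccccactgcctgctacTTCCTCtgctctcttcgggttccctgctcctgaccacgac
Pltp: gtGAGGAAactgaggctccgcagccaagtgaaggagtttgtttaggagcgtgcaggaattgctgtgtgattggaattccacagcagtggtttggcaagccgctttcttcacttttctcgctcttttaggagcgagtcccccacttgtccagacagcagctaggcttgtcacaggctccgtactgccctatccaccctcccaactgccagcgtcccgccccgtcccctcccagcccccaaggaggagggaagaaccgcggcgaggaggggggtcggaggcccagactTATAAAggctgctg
Abca1: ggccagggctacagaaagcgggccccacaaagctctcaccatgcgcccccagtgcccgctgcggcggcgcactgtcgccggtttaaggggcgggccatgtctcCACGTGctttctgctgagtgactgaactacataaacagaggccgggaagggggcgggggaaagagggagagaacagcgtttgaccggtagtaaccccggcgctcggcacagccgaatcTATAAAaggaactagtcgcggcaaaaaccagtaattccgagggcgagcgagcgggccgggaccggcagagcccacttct

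The promoters of Abca9, Abcg3 and Pltp each held 1 match to GAGGAA or its reverse complement TTCCTC, and those of Abca1 and Plin2 held none. Of all 32851 promoters in the table, 28.3% hold one. Abca1 and Plin2 each held the E-box, which 7.15% of promoters hold, and Abca1 and Pltp each held TATAAA, read with TTTATA on the other strand, which 13.6% hold. Apoe has 3 promoters in the table, of which 2 held GAGGAA and 1 held TATAAA. A direct repeat of AGGTCA with 4 bases between, as LXR binds, occurred in 0.0152% of promoters, and the repeat with 1 base between, as PPAR binds, in 0.0396%. Neither exact repeat was present in the windows of these 6 genes. Only these exact bases were searched on either strand, so a site that departs from them would have been missed.

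**Figure D1:**
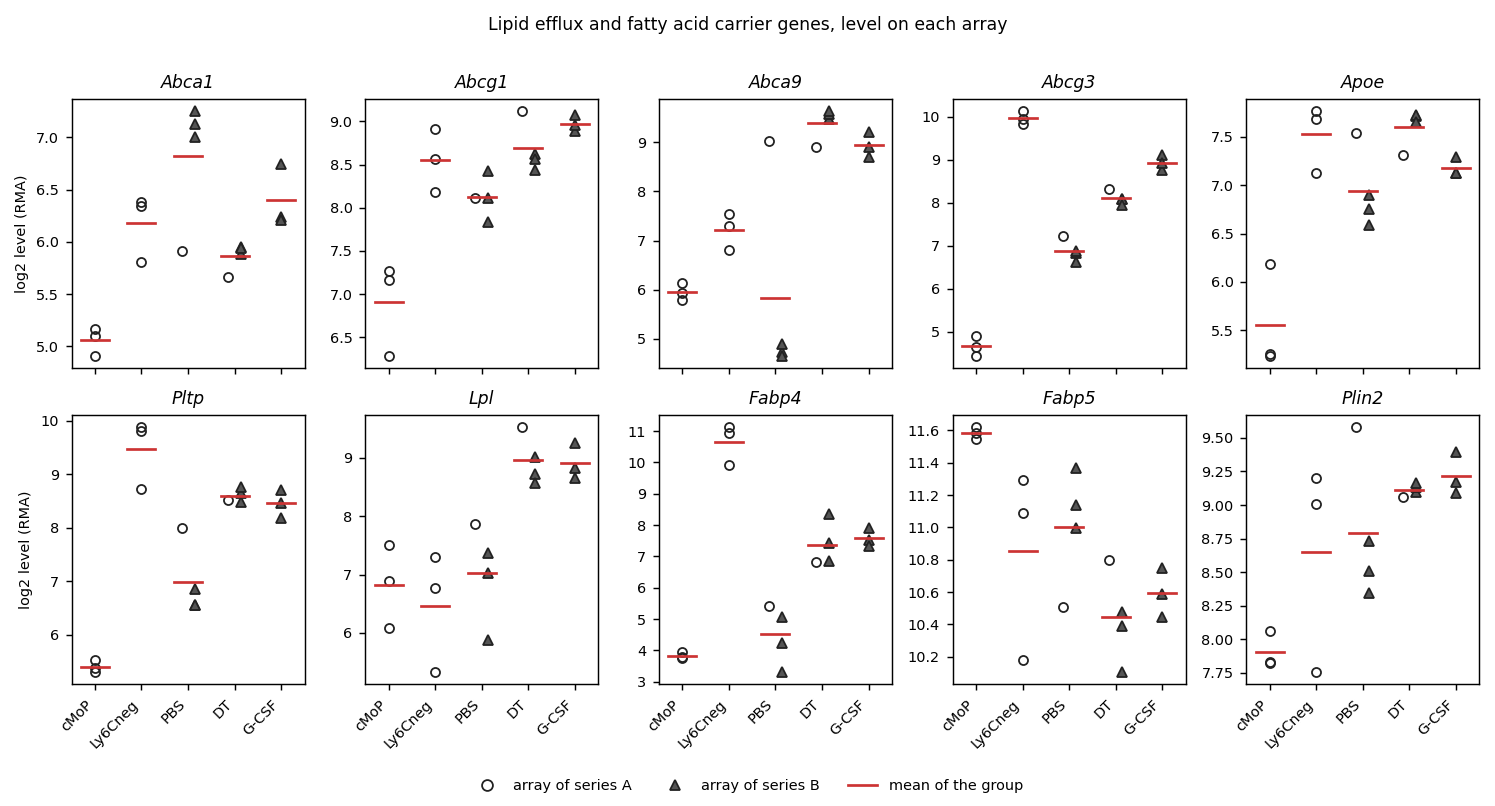
Log2 expression level (vertical axis) of each of the 10 genes on every array by group (horizontal axis), with circles for series A, triangles for series B and a red line for the group mean. The single PBS circle of Abca9 stands at 9.04, among the DT and G-CSF arrays, while the 3 PBS triangles lie between 4.65 and 4.90.

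All levels below are log2 values as deposited, on which 1 unit is a doubling, and differences are group terms of a limma model over all 17 arrays that also holds the array series. Adjusted p-values are Benjamini-Hochberg over 22180 genes, and a gene is said to rise or fall where the adjusted p was under 0.05. Because the cells were measured in bulk, a smaller share of cells of a type and less RNA per cell cannot be told apart.

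Abca9, an ABC transporter of the A subfamily that in human cells is induced as monocytes become macrophages, had the largest difference of the 10 genes between DT and PBS from all arrays. On the DT arrays it was at 8.91 (A1), 9.48, 9.57 and 9.64. On the PBS arrays it was at 9.04 (A1), 4.73, 4.65 and 4.90. PBS A1 thus lay inside the DT range and the other PBS arrays far under it, so the groups overlapped by 1 array. From all arrays Abca9 rose in DT by 3.57 (SE 0.56, adjusted p = 0.000866), and in series B alone by 4.80, 27.8-fold (adjusted p = 6.12e-09). With PBS A1 as the only PBS array the difference, which is DT A1 minus PBS A1, was -0.12. The difference from PBS was thus 4.92 larger in series B than in series A, where it is a single pair with no replicate. Most of that gap lay between the PBS arrays, at 9.04 in series A and 4.65 to 4.90 in series B. The DT arrays were at 8.91 in series A and 9.48 to 9.64 in series B.

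By level alone the other groups gave Abca9 an order without the PBS arrays, but that order crosses the array series. The G-CSF arrays lie in series B and the Ly6Cneg and cMoP arrays in series A. Only DT A1, at 8.91, shares their series. The G-CSF arrays were at 8.91, 8.70 and 9.20, the Ly6Cneg arrays at 6.81, 7.30 and 7.54, and the cMoP arrays at 6.13, 5.93 and 5.80. Every DT and G-CSF array was therefore above every Ly6Cneg array, which in turn was above every cMoP array. The rise from cMoP to DT was 4.80 from all arrays (SE 0.77, adjusted p = 0.000169), but 2.96 without the PBS arrays of series B and 7.88 without DT A1, because the series term rests on the DT and PBS groups alone. DT stood above Ly6Cneg by 3.54 (adjusted p = 0.00645), by 1.70 without the PBS arrays of series B (adjusted p = 0.00177) and by 6.62 without DT A1. With no series term it was 2.18 and the call was lost (adjusted p = 0.0567). Ly6Cneg against cMoP gave 1.26 (SE 0.64, adjusted p = 0.161) from all arrays, and the same difference passed in series A alone (SE 0.20, adjusted p = 0.00321) and with the PBS arrays of series B left out.

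Abca9 lies on chromosome 11 in a run of related genes, in RefSeq order Abca8b, Abca8a, Abca9, Abca6 and Abca5, which were examined for their position after the values of Abca9 had been seen. Abca6 followed Abca9 at a lower level. It was at 6.95 to 7.74 on the DT arrays, 7.18 to 7.56 on the G-CSF arrays, 7.004 on PBS A1 and 4.03 to 5.08 on the other PBS arrays. Abca6 rose in DT by 2.29 (SE 0.39, adjusted p = 0.00134) from all arrays and by 3.07 in series B, and the difference was -0.05 with PBS A1 alone. It lay at 4.19 to 4.53 on the cMoP arrays and 4.74 to 5.26 on the Ly6Cneg arrays. Abca5, Abca8a and Abca8b were called in none of the 6 comparisons from all arrays, and their DT differences from PBS were -0.03, 0.02 and 0.13.

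**Figure D2:**
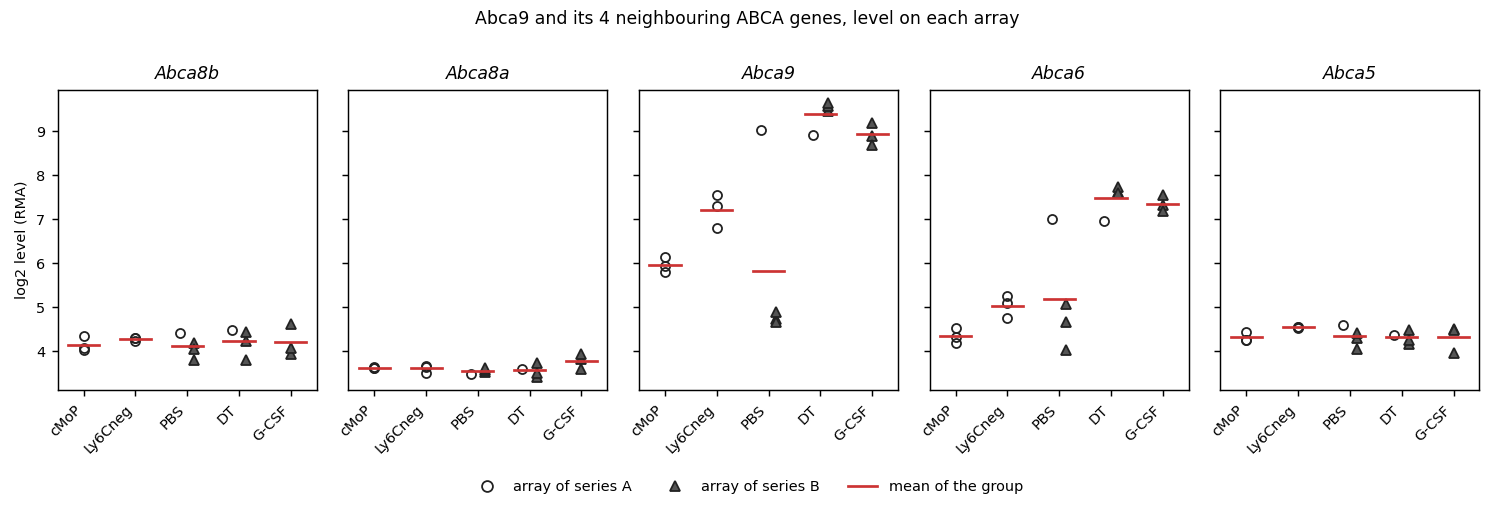
Log2 expression level (vertical axis) of the 5 neighbouring genes Abca8b, Abca8a, Abca9, Abca6 and Abca5 on every array by group, with circles for series A and triangles for series B. Abca9 and Abca6 reach 9.64 and 7.74 on DT arrays, while the other 3 lie between 3.42 and 4.61 on every array.

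Abcg3, a transporter of the G subfamily found in rodents whose substrate is not settled, was the member least tied to the PBS arrays in question. It was at 4.44, 4.65 and 4.91 on the cMoP arrays. The PBS arrays were at 7.22 (A1), 6.62, 6.84 and 6.87, and the DT arrays at 8.32 (A1), 8.08, 8.10 and 7.95. It reached 8.76, 9.12 and 8.92 on the G-CSF arrays and 9.95, 10.14 and 9.83 on the Ly6Cneg arrays. The 5 groups did not overlap at any step of the order cMoP, PBS, DT, G-CSF, Ly6Cneg. That order was read from the values of Abcg3 after they had been seen and was not tested. The levels are not adjusted for the series. Abcg3 was 1 gene of 22180 (0.00451%) to hold it, and genes that separate the groups in another order were not counted. The share therefore does not show how rare such a separation is.

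Abcg3 rose in DT over PBS by 1.22 (SE 0.13, adjusted p = 0.000316) and by 1.27 in series B alone. With PBS A1 as the only PBS array the difference was 1.10 (SE 0.26), where it did not pass. In G-CSF over PBS it rose by 2.14 (SE 0.14, adjusted p = 2.17e-06) and by 2.16 in series B. With PBS A1 alone the value, which passes through DT A1, was 1.99 (SE 0.30). The size of each difference moved by less than 1 SE of the last fit with the PBS arrays used. G-CSF exceeded DT by 0.91 (SE 0.14, adjusted p = 0.109), and leaving out DT A1 or PBS A1 brought the adjusted p to 0.0431. From cMoP to Ly6Cneg the rise was 5.31, 39.6-fold (SE 0.15, adjusted p = 1.04e-12), and from cMoP to DT it was 3.71 (SE 0.18, adjusted p = 6.28e-10). DT was lower than Ly6Cneg, at -1.59 (SE 0.18, adjusted p = 2.86e-05).

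Abca1, the pump that starts lipoprotein assembly, ran the other way in the PBS comparisons. On the PBS arrays it was at 5.92 (A1), 7.25, 7.003 and 7.13, and on the DT arrays at 5.66 (A1), 5.95, 5.89 and 5.94. PBS A1 again lay inside the DT range. Abca1 fell in DT by 0.97 (SE 0.18, adjusted p = 0.00248) and by 1.20 in series B alone, while PBS A1 alone gave -0.25 (SE 0.31, adjusted p = 0.945). The G-CSF arrays were at 6.23, 6.21 and 6.75, above every DT array, and their difference from PBS was -0.61 (adjusted p = 0.0591) from all arrays. In series B alone Abca1 fell by 0.73 (adjusted p = 0.00598), and PBS A1 alone gave 0.22 (adjusted p = 0.938). It was at 6.35, 5.80 and 6.38 on the Ly6Cneg arrays and at 5.10, 5.16 and 4.91 on the cMoP arrays, a rise of 1.12 (SE 0.21, adjusted p = 0.000557).

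Abcg1, which hands cholesterol to larger lipoproteins, differed less than Abca1 between DT and PBS in series B. The PBS arrays were at 8.12 (A1), 7.84, 8.43 and 8.12, so here PBS A1 lay among the other PBS arrays. The DT arrays were at 9.12 (A1), 8.63, 8.44 and 8.56, all above the PBS arrays, although the lowest DT array and the highest PBS array nearly met. The difference of DT from PBS was 0.56 (SE 0.21, adjusted p = 0.107), and 0.41 in series B alone (adjusted p = 0.0918). The G-CSF arrays, at 8.89, 9.07 and 8.96, rose over PBS by 0.92 (SE 0.24, adjusted p = 0.0174), a call lost without G-CSF B2 (adjusted p = 0.0648), G-CSF B3 (0.0529) or PBS B1 (0.0675). On the cMoP arrays Abcg1 was at 7.27, 7.17 and 6.29, under every other array, and it rose to the Ly6Cneg arrays, at 8.91, 8.18 and 8.56, by 1.64 (SE 0.25, adjusted p = 7.82e-05).

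Pltp, which moves phospholipid between lipoproteins, was lowest on the progenitor arrays and had its highest mean in the Ly6Cneg group. It was at 5.38, 5.305 and 5.54 on the cMoP arrays and at 9.81, 8.73 and 9.87 on the Ly6Cneg arrays, a rise of 4.07, 16.7-fold (SE 0.30, adjusted p = 5.98e-08). The DT arrays were at 8.51 (A1), 8.65, 8.75 and 8.47, and the G-CSF arrays at 8.19, 8.46 and 8.71. The PBS arrays, at 8.00 (A1), 6.56, 6.56 and 6.85, were all lower than the DT and G-CSF arrays, with PBS A1 close under them. Pltp rose in DT by 1.60 (SE 0.26, adjusted p = 0.00103) and by 1.97 in series B, and PBS A1 alone gave 0.51 (SE 0.44, adjusted p = 0.891). DT and Ly6Cneg differed by -0.41 (SE 0.36, adjusted p = 0.636), and the lowest Ly6Cneg array, Anew, lay under the highest DT array.

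Apoe, an apolipoprotein that macrophages secrete, was lowest on the cMoP arrays, at 5.26, 5.24 and 6.19. The DT arrays were at 7.31 (A1), 7.71, 7.73 and 7.66, and the PBS arrays at 7.54 (A1), 6.75, 6.90 and 6.59. In series A the PBS array was thus the higher of the pair, and in series B every DT array was above every PBS array. The difference was 0.66 from all arrays (SE 0.23, adjusted p = 0.0744), 0.95 in series B alone (adjusted p = 0.000188) and -0.22 with PBS A1 alone (adjusted p = 0.968). The G-CSF arrays, at 7.13, 7.12 and 7.29, lay under every DT array, with a difference of -0.37 (adjusted p = 0.897). Apoe rose from cMoP to Ly6Cneg, at 7.68, 7.13 and 7.76, by 1.96 (SE 0.26, adjusted p = 2.9e-05). Its neighbour Apoc2, which encodes the cofactor of lipoprotein lipase, rose over the same step by 3.59 (SE 0.29, adjusted p = 1.68e-07) and in DT over PBS by 1.12 (SE 0.25, adjusted p = 0.00719), but by 0.29 with PBS A1 alone, where it did not pass (adjusted p = 0.966).

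Lpl, the enzyme that releases fatty acids from circulating triglyceride, was higher on the DT and G-CSF arrays than on the Ly6Cneg and cMoP arrays. On the DT arrays it was at 9.52 (A1), 8.72, 9.01 and 8.56, and on the G-CSF arrays at 8.65, 8.83 and 9.25. On the Ly6Cneg arrays it was at 6.77, 5.33 and 7.30, under every DT array, and DT exceeded Ly6Cneg by 3.18 (SE 0.54, adjusted p = 0.00114), and by 3.05 without the PBS arrays of series B (adjusted p = 0.00806). The cMoP arrays, at 6.08, 6.88 and 7.50, overlapped the Ly6Cneg arrays, with a difference of -0.36 (SE 0.45, adjusted p = 0.609). The PBS arrays were at 7.86 (A1), 7.02, 7.37 and 5.88, all under the DT and G-CSF arrays. Lpl rose in DT over PBS by 1.92 (SE 0.39, adjusted p = 0.00427), by 2.005 in series B alone, and by 1.66 with PBS A1 alone, where it did not pass (SE 0.74, adjusted p = 0.634). The second probe set of Lpl was at 8.51 on PBS A1, 5.57 to 5.86 on the other PBS arrays and 8.31 to 10.04 on the DT arrays, so by that probe set DT B3 lay under PBS A1 and the groups overlapped.

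Fabp4, the fatty acid-binding protein of macrophages and fat cells, had the largest rise of the 10 genes from progenitor to Ly6Cneg monocyte. It was at 3.75, 3.80 and 3.95 on the cMoP arrays and at 11.12, 9.91 and 10.94 on the Ly6Cneg arrays. That was a rise of 6.82, 113-fold (SE 0.48, adjusted p = 3.56e-08). The DT arrays lay between these groups, at 6.83 (A1), 8.36, 7.44 and 6.86, and so did the G-CSF arrays, at 7.54, 7.90 and 7.34. On the PBS arrays it was at 5.43 (A1), 4.23, 5.07 and 3.30, under every DT array, with the arrays of series B ranging down to the level of the cMoPs. Fabp4 rose in DT over PBS by 2.86, 7.27-fold (SE 0.41, adjusted p = 0.00068), by 3.35 in series B alone, and by 1.39 with PBS A1 alone, where it did not pass (SE 0.61, adjusted p = 0.616). DT was lower than Ly6Cneg by 3.09 on the log2 scale, at -3.09 (SE 0.57, adjusted p = 0.00207), and without DT A1 the difference was -1.87 (adjusted p = 0.0975). Of 4 fat cell markers 0 were called in DT over PBS, and 1 rose from cMoP to Ly6Cneg and 1 from cMoP to DT. Their mean was 5.67 to 5.774 on the Ly6Cneg arrays and 5.229 to 5.339 on the cMoP arrays, and Adipoq, which defines that cell, was at 4.56 to 5.48 over all arrays. Their part was not tested.

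Fabp5, which binds fatty acids in skin and in many immune cells, moved against Fabp4. It was highest on the cMoP arrays, at 11.55, 11.62 and 11.58, and every array of the DT and G-CSF groups was lower. The DT arrays were at 10.80 (A1), 10.48, 10.39 and 10.10, the G-CSF arrays at 10.59, 10.75 and 10.45, and the PBS arrays at 10.51 (A1), 11.14, 11.36 and 10.997. Fabp5 differed in DT from PBS by -0.56 (SE 0.23, adjusted p = 0.133), by -0.84 in series B alone, where it passed (adjusted p = 0.0018), and by 0.29 with PBS A1 alone. From cMoP to Ly6Cneg, at 11.09, 11.29 and 10.18, it fell by 0.73 (SE 0.26, adjusted p = 0.0442). For this probe set the call was lost in 11 of 17 fits that each left out 1 array. Without the Ly6Cneg array Apool the difference was -0.39 (adjusted p = 0.24). The call was also lost in series A alone (adjusted p = 0.0865). By every probe set of Fabp5 each Ly6Cneg array lay under each cMoP array. The probe set with a mean of 8.79 was at 8.06 to 9.27 on Ly6Cneg and 9.96 to 10.54 on cMoP arrays. The one with a mean of 7.31 was at 6.92 to 7.21 and 7.67 to 8.08. Differences by the probe sets not used were not tested.

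Plin2, the coat of lipid droplets, lay within a narrow range on the DT and G-CSF arrays and a wider one on the PBS arrays. The DT arrays were at 9.06 (A1), 9.10, 9.13 and 9.16, and the G-CSF arrays at 9.09, 9.40 and 9.17. The PBS arrays ranged from 9.58 (A1), the highest of all 17, to 8.51, 8.35 and 8.73. DT differed from PBS by 0.32 (SE 0.26, adjusted p = 0.539) from all arrays, by 0.60 in series B, where it rose (adjusted p = 0.00854), and by -0.52 with PBS A1 alone (adjusted p = 0.904), so the direction turned with the PBS arrays used. In G-CSF over PBS the difference was 0.55 (adjusted p = 0.254), 0.69 in series B alone (adjusted p = 0.00406) and -0.43 with PBS A1 alone (adjusted p = 0.912). The Ly6Cneg arrays were at 9.01, 7.76 and 9.20 and the cMoP arrays at 8.06, 7.83 and 7.83, which overlapped, with a difference of 0.75 (SE 0.30, adjusted p = 0.0709). The low Ly6Cneg array, Anew, was also the lowest of its group in Lpl, Pltp, Fabp4, Apoe, Abca1 and Abcg1.

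Of the 10 genes, 5 rose and 1 fell in DT over PBS from all arrays, where 6.75% of all genes rose and 5.74% fell. Fabp4 and Abca9 changed most, then Lpl, Pltp and Abcg3, with Abca1 the one that fell. In series B alone 7 rose and 2 fell, against 10.3% and 10.8% of all genes, with Apoe, Plin2 and Fabp5 added. With PBS A1 as the only PBS array limma called 0 of the 10, while 0.00902% of all genes rose and 0% fell, and 4 of the 10 had an unadjusted p under 0.05, as did 7.68% of all genes. A single PBS array there is taken to vary like the other groups, and each difference is DT A1 minus PBS A1 only. The median difference of the 10 genes was 0.94 from all arrays, beside 0.01 for all genes.

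Every DT array was above every PBS array for Abcg1, Abcg3, Pltp, Lpl and Fabp4, a pattern of 5.3% of genes, and no member lay wholly lower, as 2.5% of genes did. Within series B 8 of the 10 were wholly higher in DT, as 18.5% of genes were, and Abca1 and Fabp5 wholly lower, as 16.9% were. As a whole array, PBS A1 resembled DT more than its own group. Its correlation was 0.9736 or more with each DT array, but 0.9227 or less with PBS B1, B2 and B3. The share of all genes nearer DT was not counted, so the following count cannot be told apart from this array-wide likeness. PBS A1 was nearer the DT mean than the mean of the other PBS arrays in 7 of the 10 genes. It was nearer the other PBS arrays in Abcg1, Abcg3 and Fabp4. These 3 genes and Lpl were those whose DT A1 array exceeded PBS A1 by 1 or more on the log2 scale, by 1.002, 1.10, 1.39 and 1.66 respectively. Along with these differences, 7 of 8 progenitor markers and 3 of 3 T cell markers fell in DT over PBS and 2 of 8 neutrophil markers fell too, while 3 of 4 classical monocyte and 4 of 6 Ly6Cneg monocyte markers rose. The Ly6Cneg monocyte markers had a mean of 8.876 to 8.97 on the PBS arrays of series B, 10.76 on PBS A1 and 10.74 to 11.14 on the DT arrays. Of 6 red pulp macrophage markers 2 fell and 1 rose in DT over PBS. The mean of those 6 was 8.571 to 8.979 on the PBS arrays of series B, 7.042 on PBS A1 and 7.325 to 7.605 on the DT arrays. The part of all these markers in the result was not tested.

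**Figure D3:**
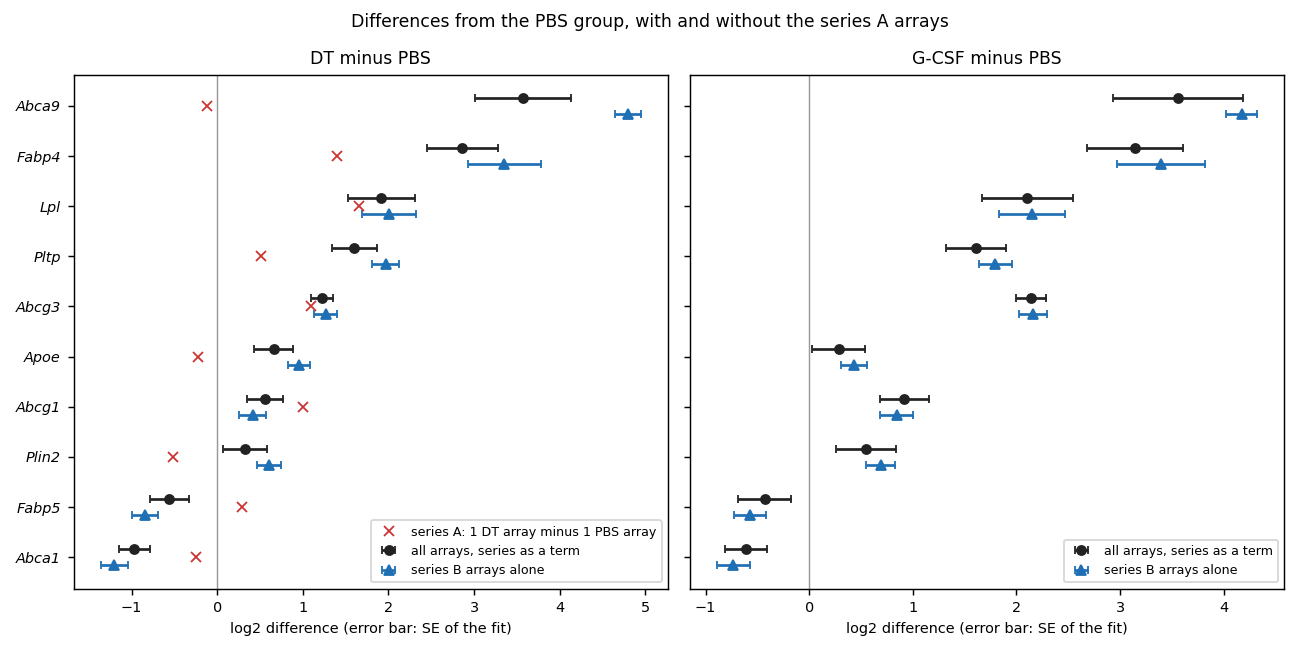
Log2 difference of DT from PBS and of G-CSF from PBS (horizontal axis, with standard error bars) for each of the 10 genes, from all arrays and from series B alone, with red crosses for the single pair DT A1 minus PBS A1. For Abca9 the estimates are 3.57 and 4.80 and the cross is at -0.12, while for Abcg3 they are 1.22, 1.27 and 1.10.

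The comparison of G-CSF with PBS shares its PBS arrays with that of DT. From all arrays 6 of the 10 genes rose and 0 fell, against 6.28% and 6.22% of all genes, namely Abca9 by 3.56 (SE 0.62, adjusted p = 0.0016), Fabp4 by 3.15 (SE 0.46, adjusted p = 0.000608), Lpl by 2.11 (SE 0.44, adjusted p = 0.00475), Pltp by 1.61 (SE 0.29, adjusted p = 0.00186), Abcg3 and Abcg1. In series B alone 8 rose and 2 fell, against 9.73% and 10.7% of all genes. With PBS A1 as the only PBS array Abcg3 alone passed, where 0.0586% of all genes rose and 0.018% fell. Under that choice Abca9 stood at -0.75, Abcg1 at 1.43 (adjusted p = 0.378), Lpl at 1.80, Fabp4 at 1.44 and Pltp at 0.34 (adjusted p = 0.931). Abcg1, Abcg3, Pltp, Lpl and Fabp4 were wholly above PBS in G-CSF, a pattern of 8.02% of genes, and none was wholly lower, as 4.22% were. Within series B 8 of the 10 were wholly higher and Abca1 and Fabp5 wholly lower, against 18.6% and 15.6% of genes. In the same comparison from all arrays 7 of 8 progenitor, 5 of 8 neutrophil and 3 of 3 T cell markers fell. Of the others, 4 of 6 Ly6Cneg monocyte and 3 of 4 classical monocyte markers rose. Of 6 red pulp macrophage markers 1 rose and 1 fell. The part of these markers was not tested.

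The test of G-CSF against DT does not use the PBS level directly, but from all arrays it uses the series term, which the PBS arrays help to set. Series B alone does not. By limma over all arrays 0 of the 10 genes and 0 of 22180 passed (0%), while Abcg3 among the 10 and 6.03% of all genes had an unadjusted p under 0.05. In series B alone, where both groups have 3 arrays, 0.018% of genes rose and 0.018% fell, and again none of the 10. There Abca1, Abca9, Abcg1, Abcg3 and Apoe had an unadjusted p under 0.05, as did 8.12% of all genes, and Abcg3 had an adjusted p of 0.0561. Abcg3 and Abca1 were wholly higher in G-CSF, as 3.44% of genes were, and Apoe was wholly lower, as 3.43% were. Within series B Abcg1 joined the higher genes, against 7.16% of all genes, and Abca9 joined Apoe among the lower, against 7.18%. In series B alone Abca9 was lower in G-CSF by 0.62 on the log2 scale, at -0.62 (SE 0.15, adjusted p = 0.243), and from all arrays its difference was -0.01.

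From progenitor to Ly6Cneg monocyte, within series A, 6 of the 10 genes rose and 1 fell, against 11.9% and 18.4% of all genes. Fabp4 led, followed by Abcg3 and Pltp, with Apoe, Abcg1 and Abca1 between 1.12 and 1.96 and Fabp5 lower. No overlap between the groups was seen for 7 genes that were higher, as for 24.7% of all genes, and for Fabp5, which was lower, as for 21.9%. In series A alone 7 genes rose and 0 fell, against 11.3% and 17% of all genes, with Abca9 added and Fabp5 lost. With the PBS arrays of series B left out of the model over all arrays 7 rose and Fabp5 fell, against 13% and 19% of all genes. All 6 red pulp macrophage markers and 4 of 5 dendritic cell markers rose in the same comparison from all arrays. So did 5 of 6 Ly6Cneg monocyte, 3 of 8 neutrophil and 2 of 4 B cell markers. Of 8 progenitor markers 6 fell and 1 rose, and of 4 classical monocyte markers 1 rose and 1 fell. The B cell markers had a mean of 6.126 to 8.078 on the Ly6Cneg arrays against 5.486 to 5.728 on the cMoP arrays. The macrophage markers had a mean of 7.012 to 9.879 on the Ly6Cneg arrays against 5.325 to 5.46 on the cMoP arrays, and Spic, which defines those macrophages, was at 10.22, 6.97 (Anew) and 10.38. On the array Anew, where Spic was low, Abca1, Abcg1, Apoe, Pltp, Lpl, Fabp4 and Plin2 were also the lowest of the 3, while Abcg3 and Fabp5 were the highest. The part of these markers in the differences was not tested.

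**Figure D4:**
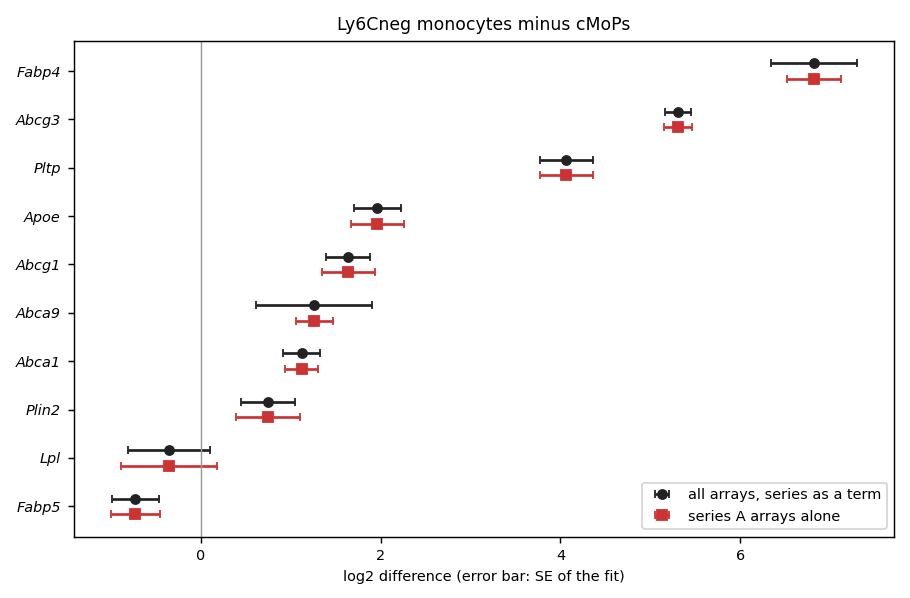
Log2 difference of Ly6Cneg monocytes from cMoPs (horizontal axis, with standard error bars) for each of the 10 genes, from the model over all arrays and from series A alone. Fabp4 lies at 6.82, Abcg3 at 5.31 and Pltp at 4.07, while Fabp5 at -0.73 and Lpl at -0.36 lie below 0.

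DT monocytes differed from progenitors in 9 of the 10 genes, 8 higher and Fabp5 lower, against 11.9% and 13.7% of all genes. The largest after Abca9 were Fabp4 (3.73, SE 0.57, adjusted p = 0.000111), Abcg3 and Pltp (3.65, SE 0.36, adjusted p = 1.56e-06), then Lpl (2.83, SE 0.54, adjusted p = 0.000836), Apoe (2.19), Abcg1 (1.99) and Plin2 (1.57, SE 0.36, adjusted p = 0.00317). Abca1 alone was not called, at 0.25 (adjusted p = 0.535), although each of its DT arrays was above each cMoP array. Over all arrays of both groups 9 genes were wholly higher in DT and Fabp5 wholly lower, against 17.5% and 18.1% of all genes. These differences cross the array series, which the PBS arrays help to set. Without the PBS arrays of series B 7 rose and 0 fell, against 7.72% and 8.61% of all genes. Plin2 (1.15, adjusted p = 0.0674) and Fabp5 (-0.79, adjusted p = 0.138) were then lost. From all arrays 7 of 8 progenitor markers fell in this comparison, and 5 of 8 neutrophil, 5 of 6 Ly6Cneg monocyte, 3 of 4 classical monocyte and 3 of 6 red pulp macrophage markers rose, and their part was not tested.

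Against Ly6Cneg monocytes DT monocytes were higher in Abca9 and Lpl and lower in Abcg3, Fabp4 and Abca1, so 2 rose and 3 fell against 7.42% and 3.39% of all genes. Abca1 was the weakest of them, at -0.87 (SE 0.25, adjusted p = 0.0336). It was lost in 8 of 17 fits that each left out 1 array and, at -0.51, without the PBS arrays of series B (adjusted p = 0.328). The other 4 passed without those arrays too, where 5.03% of all genes rose and 1.81% fell. Abca9 and Lpl were also wholly above the Ly6Cneg arrays, as 14.3% of genes were, and Abcg3 and Fabp4 wholly below, as 10.8% were. The median difference of the 10 genes was -0.09, beside 0.02 for all genes. In the same comparison 4 of 4 classical monocyte and 3 of 8 neutrophil markers rose. Of the others, 3 of 6 red pulp macrophage, 3 of 5 dendritic cell and 3 of 4 B cell markers fell. Their part was not tested.

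Of 72 other genes of lipid transport and storage, 62 were measured. In DT over PBS 17 rose and 6 fell, that is 27.4% and 9.68%, beside 6.75% and 5.74% of all genes, with a median of 0.13. The rises were led by Cyp27a1, which makes an oxysterol ligand of LXR (2.81, SE 0.51, adjusted p = 0.00204), Abca6 and the fatty acid receptor Cd36 (2.12, SE 0.47, adjusted p = 0.00729). The falls were led by endothelial lipase Lipg (-2.56, SE 0.41, adjusted p = 0.00105), Vldlr, a lipoprotein receptor (-1.07, SE 0.20, adjusted p = 0.00224), and Angptl4, an inhibitor of Lpl (-0.92, SE 0.28, adjusted p = 0.0409), the last being lost in 10 of 17 fits that each left out 1 array. Genes of lysosomal and intracellular sterol handling rose in 5 of 7 cases, among them the acid lipase Lipa (1.03, adjusted p = 0.00147; 0.13 with PBS A1 alone) and the sterol carrier Npc2 (1.18, adjusted p = 0.00094; 0.25 with PBS A1 alone). Pparg (1.27, adjusted p = 0.0131) and its partner Rxra (1.35, adjusted p = 0.00216) rose among 7 nuclear receptors and targets. With PBS A1 alone Pparg was at 1.54 (adjusted p = 0.613) and Rxra at 0.13 (adjusted p = 0.986). Of 12 genes of droplets and neutral lipases 0 rose and 1 fell. With PBS A1 as the only PBS array each difference is DT A1 minus PBS A1. It was then -0.44 for Cyp27a1, -0.0505 for Abca6 and -0.79 for Cd36. Among the falls it was 0.0846 for Lipg, 0.0805 for Vldlr and 0.41 for Angptl4.

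The levels behind those leading genes split the PBS group as Abca9 did. Cyp27a1 was at 9.39 to 10.10 on the DT arrays, 9.83 on PBS A1 and 5.76 to 6.52 on the other PBS arrays. Lipg was at 4.495 to 4.81 on the DT arrays, 4.41 on PBS A1 and 8.03 to 8.18 on the other PBS arrays. Cd36 was at 6.96 on PBS A1, above DT A1 at 6.17, while in series B the DT arrays at 8.30 to 8.67 were above the PBS arrays at 5.21 to 5.57. In G-CSF over PBS 17 rose and 6 fell, beside 6.28% and 6.22% of all genes, led by Cyp27a1 (2.94), Abca6 (2.38) and the receptor Lrp1 (2.27) and by Lipg (-3.01), the exporter Abcg2 (-1.69) and Vldlr (-1.31). With PBS A1 alone the difference was -0.85 for Cyp27a1, -0.35 for Abca6 and -0.0381 for Lrp1. It was 0.0761 for Lipg, -1.19 for Abcg2 and 0.0366 for Vldlr. G-CSF against DT gave 0 calls among the 62 by limma over all arrays. Of the 62, 6 had an unadjusted p under 0.05, as did 6.03% of all genes.

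From cMoP to Ly6Cneg 11 of the 62 rose and 8 fell, 17.7% and 12.9%, near the 11.9% and 18.4% of all genes. Cd36 rose by 5.66 (SE 0.55, adjusted p = 1.14e-06), Apoc2 by 3.59 and Cyp27a1 by 3.32, and the peroxisomal transporters Abcd2 and Abcd3 fell by 2.31 and 1.75 and Abcg2 by 1.79. From cMoP to DT 22 rose and 5 fell, 35.5% and 8.06% beside 11.9% and 13.7% of all genes, led by Cyp27a1 (4.75), Apoc2 (4.43) and Lrp1 (4.19) and by Abcg2 (-2.59), the receptor Lrp8 (-1.61) and Angptl4 (-1.35), and 17 rose and 2 fell without the PBS arrays of series B. DT exceeded Ly6Cneg in 18 and was lower in 3, 29% and 4.84% beside 7.42% and 3.39% of all genes. Abcd2 (3.49), Abca6 (3.09) and Lrp1 (2.47) led, and Lrp8 (-1.30), Abcg2 (-0.79) and the droplet protein Plin4 (-0.58) were lower, the last 3 losing the call in 2, 10 and 4 of 17 fits that each left out 1 array. Abcg2 had the higher mean in DT, 5.12 against 4.85, so its sign comes from the series term.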

How the data were processed

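Total RNA of sorted monocytes and progenitors was measured on 17 Affymetrix MoGene 2.0 arrays. The authors deposited log2 expression values made with RMA in the oligo package, whose version is not given in the sources used here, so background correction, quantile normalization and probe summary were already done. RMA pulls low signals together, which understates differences of dim genes. Of 41345 probe sets, 25341 were in the platform annotation, 23521 with 1 symbol and 1820 with several. The 22180 genes with 1 symbol were kept, by the probe set with the highest mean, and 21994 matched the reference table by identifier. Array medians were 5.313 to 5.529. The small number of arrays sets the precision.

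Group terms and an array-series term from the name prefix were fitted with limma 3.58.1 (R 4.3.3, 11 residual degrees of freedom), with Benjamini-Hochberg adjustment over all genes and a threshold of 0.05. The step was tested on simulated data for DT against PBS over 22180 genes, where 197 of 200 genes changed by 2 on the log2 scale were recovered with a false share of 0.0296. Figures were drawn with matplotlib 3.10.9. Alternatives were no series term, each series alone, quantile normalization again, a dim filter at the 30th percentile, the replicate number as a block, and each array left out. The members and lists were chosen with earlier results of these data known. Leaving out the PBS arrays of series B was chosen after the data had been seen. Genes named beside the 10 were, per comparison, the 3 largest called rises and falls of the other lipid list, the sort markers, and the 2 genes most like each member with an SD of 1 or more over the arrays. Lipa, Npc2, Pparg, Rxra, and the neighbours of Abca9 and Apoe were named after their values had been seen. Other-cell marker lists are described by counts and ranges.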

Additional observations from a re-analysis of the deposited data

Results flagged for a closer look

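Abca9 on PBS A1 was at 9.035, apart from the other 3 PBS arrays at 4.65 to 4.90, a gap that took up most of the range of the group. Apoe on DT A1 was at 7.311, under the other 3 DT arrays at 7.66 to 7.73. Of 20 groups of 4 arrays examined for such a gap 2 showed it, and chance gives about 1 in 20. The difference of DT from PBS for Abca9 was 4.922 larger in series B than in series A on the log2 scale. It was 4.80 in series B and -0.12 in series A, where it is DT A1 minus PBS A1 alone.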

How the results depend on the processing

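For the 10 genes, 1379 values under the alternatives kept their direction and their side of the threshold, 45 lost a call, 42 gained one and 34 turned in sign. For the other named lipid genes these counts were 689, 43, 0 and 12. Leaving out the PBS arrays of series B changed most. It left 0 members called in DT over PBS and 1 in G-CSF over PBS. In DT over PBS it turned Abca9 (-0.12), Apoe (-0.22), Plin2 (-0.52), Fabp5 (0.29), Abca6 (-0.0505), Angptl4 (0.41), Cd36 (-0.79), Cyp27a1 (-0.44), Lipg (0.0846) and Vldlr (0.0805). In G-CSF over PBS it turned Abca9 (-0.75), Apoe (-0.74), Plin2 (-0.43), Fabp5 (0.56), Abca1 (0.22), Abca6 (-0.35), Cyp27a1 (-0.85), Lipg (0.0761), Lrp1 (-0.0381) and Vldlr (0.0366). The cause was not tested. Series B alone called 10 members in G-CSF over PBS, where 9.73% of all genes rose and 10.7% fell. Series A with its lone DT array, and the fit with no series term, each called 3 members in DT against Ly6Cneg, the first losing Abca1 and Lpl and the second Abca1 and Abca9. Without both A1 arrays 1 member was called in G-CSF over DT, and leaving out 1 array each gave 0 to 1. A second quantile normalization called 2 members for a difference of the DT effect between series, which rests on DT A1 and PBS A1. Without that normalization 8.3% of all genes were called for this term. Shares of all genes are not given here for series A with its lone DT array, no series term, or A1 or single arrays left out.

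Among small differences of G-CSF from DT, Pltp was -0.17 in series B alone, under the block, without both A1 arrays and without the PBS arrays of series B, and -0.14 with no series term, where Lpl was -0.0441. Abca9 was 0.0228 there after quantile normalization. In DT against Ly6Cneg, Apoe was -0.21 in series A alone and without the PBS arrays of series B, and Abcg2 was 0.27 with no series term. With each array left out in turn, values that crossed 0 ranged in G-CSF over DT from -0.17 to 0.14 (Pltp), -0.62 to 0.28 (Abca9) and -0.0199 to 0.27 (Fabp5), in DT over cMoP from -0.34 to 0.61 (Abca1), in DT against Ly6Cneg from -0.0178 to 0.57 (Abcg1), -0.96 to 0.50 (Pltp) and -0.21 to 0.97 (Apoe), and in Ly6Cneg over cMoP from -0.77 to 0.21 (Lpl).

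With the replicate number as a block within series B, 9 members were called in DT over PBS, 9 in G-CSF over PBS and 0 in G-CSF over DT. Shares of all genes are not given for the block. In series B without it, 10.3% of all genes rose and 10.8% fell in DT over PBS. In G-CSF over PBS 9.73% rose and 10.7% fell. Same-numbered arrays deviated together with correlations of 0.000123 to 0.0895. Arrays of different numbers were not compared, so whether the number marks anything shared cannot be told.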

Other observations

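Over the 17 arrays, the genes whose centred log2 levels lay nearest to Abca9 were Cd300lg and Ms4a4c, with root mean square differences of 0.50 and 0.56. For Abcg3 they were Shtn1 (0.46) and St6gal1 (0.56), for Pltp Ms4a7 and Hes1 (both 0.37), for Lpl Capg (0.49) and Pros1 (0.50), and for Fabp4 5430437J10Rik (0.98) and Bcl2a1a (1.11). Among the 10 genes themselves the nearest were Abcg1 and Plin2 (0.49), Apoe and Plin2 (0.51), and Abcg1 and Apoe (0.54). The 4 probe sets of Fabp5 had means of 10.88, 10.87, 8.79 and 7.31, and each was highest on a cMoP array.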
